A study of Homo sapiens with 6 samples.

Results

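The 32 genes described here belong to the ATF4 arm of the integrated stress response and to the amino acid genes it is known to control. They were taken by name from the 58884 gene identifiers of the deposited expression table, and all 32 were found. They fall into 8 transcription factors, 4 feedback and brake genes, 6 enzymes of serine and mitochondrial one-carbon metabolism, 5 other amino acid and carbon enzymes, 7 amino acid transporters, and the pair STC2 and XPOT. The series asked how human thyroid cancer cells respond when CRABP2, a cytosolic carrier of retinoic acid, is lowered or raised.

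RNA sequencing was done on 6 libraries from 3 cell lines, with 1 library per condition. BHT-101, derived from an anaplastic thyroid carcinoma, received siCRABP2, a small interfering RNA directed at CRABP2, or siControl, a control one. The same pair of treatments was used on FTC-133, which comes from a follicular thyroid carcinoma. The anaplastic carcinoma line 8505C carried a vector that expresses CRABP2 (CRABP2 vector) or the vector without insert (empty vector). Neither the time after transfection nor whether the 8505C cultures were clones or pools is stated in the sources. Nothing in them says that the cultures of a line were grown apart, so spread between libraries may be technical.

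Shortage of amino acids, misfolded protein in the endoplasmic reticulum, loss of haem and viral RNA all lead to phosphorylation of the translation factor eIF2. Most protein synthesis then slows while the mRNA of ATF4 is translated better, so ATF4 activity is set largely at the protein level. ATF4 pairs with factors of the C/EBP family, binds a composite DNA element near its targets, and raises genes that make, import and load amino acids, together with genes that shut the response down again.

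Levels are FPKM, fragments scaled by exon length and library depth, as deposited. Differences are on the log2(FPKM + 1) scale, which makes changes of low genes look smaller than they are. A gene counted as measured in a line if 1 or both of its libraries there reached an FPKM of 1, and a difference of at least 1 on that scale is called 2-fold. With 1 library on each side no test was possible within a line. Fold values of FPKM carry a 95% interval from recovered read numbers, which reflects counting error alone, since reads without molecular tags are not separate molecules. Library depth ran from 22084110 to 27958622 reads. In bulk RNA, fewer cells of a kind and less RNA per cell cannot be told apart.

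CRABP2 followed its labels. It was 11.4 FPKM with siCRABP2 and 27.3 FPKM with siControl in BHT-101, 0.170 and 8.94 FPKM in FTC-133, and 38.0 FPKM with the CRABP2 vector against 0.607 FPKM with the empty vector in 8505C. The BHT-101 knockdown library thus held more CRABP2 than either FTC-133 library. Thyroid markers were thin: the 7 genes summed to 0.299 and 0.243 FPKM in BHT-101 with siCRABP2 and siControl, and thyroglobulin (TG) and the iodide importer SLC5A5 stayed at or under 0.047 FPKM in every library. FTC-133 kept the thyroid factors PAX8, at 13.0 FPKM with siCRABP2 and 12.3 FPKM with siControl, and NKX2-1, at 12.4 and 22.6 FPKM, and 8505C kept NKX2-1, at 13.1 FPKM with the CRABP2 vector and 16.7 FPKM with the empty vector. The leukocyte gene PTPRC did not exceed 0.024 FPKM.

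Promoter sequence was examined because the members share a regulator. The RefSeq promoter table (GRCh38.p14, 250 bases before to 50 after a transcript start) matched 27 of the 32 genes with 45 windows. The C/EBP-ATF composite element, searched as TGATGNAA with TTNCATCA on the other strand, lay in a window of 8 of these 27 genes (29.6%). It lay in 4.46% of all 27305 genes with a window, and by windows the shares were 17.8% for the 45 windows of the set and 3.62% of all 35116. The 8 matches are printed 5′ to 3′ on the gene's strand with the element in capitals, since they show how it varies at its free base and in orientation.

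ATF3: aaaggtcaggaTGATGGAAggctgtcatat
ASNS: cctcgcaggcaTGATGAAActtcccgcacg
SLC7A1: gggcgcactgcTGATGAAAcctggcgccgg
JDP2: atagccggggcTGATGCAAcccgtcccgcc
CEBPG: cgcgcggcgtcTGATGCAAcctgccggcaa
SLC1A5: gaggaagtggcTGATGCAAgctgtccaggg
CHAC1: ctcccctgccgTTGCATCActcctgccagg
SLC3A2: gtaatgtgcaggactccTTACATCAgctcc

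The first base of the element lay at position -191 from the start in ATF3, -68 in ASNS, -16 in JDP2, -42 in CEBPG, -97 in SLC1A5 and -209 in CHAC1. In SLC7A1 and SLC3A2 it lay after the start, at base 8 and base 38, where the start is base 1. CHAC1 and SLC3A2 carried it on the other strand. A match describes these letters and is not evidence of binding, and genes without one may carry an element outside the window.

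The 250 bases before the start are shown for ASNS, a classic target of ATF4, and CHAC1, a glutathione-degrading enzyme, since ASNS had the highest FPKM ratio of the set in FTC-133 and CHAC1 carries the element on the other strand. The ASNS stretch is chr7:97872409-97872658 on the minus strand, and the CHAC1 stretch is chr15:40953221-40953470 on the plus strand.

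ASNS promoter: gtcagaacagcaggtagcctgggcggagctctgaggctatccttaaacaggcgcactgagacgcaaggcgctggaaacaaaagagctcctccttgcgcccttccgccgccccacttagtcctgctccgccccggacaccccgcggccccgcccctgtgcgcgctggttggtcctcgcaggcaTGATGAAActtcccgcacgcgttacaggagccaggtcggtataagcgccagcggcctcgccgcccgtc
CHAC1 promoter: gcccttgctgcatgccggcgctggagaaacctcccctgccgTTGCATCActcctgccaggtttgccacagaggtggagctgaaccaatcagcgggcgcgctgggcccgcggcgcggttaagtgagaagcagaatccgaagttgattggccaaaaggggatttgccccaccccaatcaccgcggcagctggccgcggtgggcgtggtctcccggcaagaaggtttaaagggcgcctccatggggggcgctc

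Responses were set beside the presence of the element, with no test. In FTC-133 the median difference was 0.81 for the 8 genes with a match and 0.87 for the 19 without, in BHT-101 it was -0.21 and -0.01, and in 8505C it was -0.22 and -0.10. The range in FTC-133 ran from 0.07 to 2.11 with a match and from -0.58 to 2.42 without.

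In FTC-133, the stress genes were higher with siCRABP2 as a group. Of 32 members, all measured, 30 were above 0, against 46.1% of the 12832 genes measured in this line. With siCRABP2, 9 members were at least 2-fold higher, where 2.36% of all genes were, and 0 were at least 2-fold lower, where 2.35% were. The median of the 32 was 0.86, and that of all measured genes was -0.04. ATF5 and SLC38A2 were the 2 members below 0. One member, ASNS, counted as measured only through its siCRABP2 library.

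In BHT-101 the same treatment left the group near its control. Here 12 of 31 measured members were above 0, against 53.3% of 12055 genes, and 0 members passed 2-fold in either direction, where 0.589% of all genes were higher and 0.539% lower. The median was -0.06, and that of all genes was 0.01. The members ran from -0.36 for JDP2 to 0.50 for CTH. All genes also differed less in this line: their 5th to 95th percentiles ran from -0.30 to 0.34 in BHT-101 and from -0.76 to 0.73 in FTC-133.

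In 8505C the CRABP2 vector library had 12 of 30 measured members above 0, against 52.8% of 11731 genes. With the vector, 0 members were at least 2-fold higher, where 1.85% of all genes were, and 2, SLC7A5 and SLC7A11, were at least 2-fold lower, where 1.86% were. The median was -0.11, and that of all genes was 0.02. Each difference rests on 1 library per side.

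The 32 genes together held 0.388% of reads in the FTC-133 siCRABP2 library (95% Wilson interval 0.385 to 0.390) and 0.241% in its siControl library (0.239 to 0.243). In BHT-101 they held 0.404% with siCRABP2 and 0.421% with siControl, and in 8505C 0.696% with the CRABP2 vector and 0.842% with the empty vector. The FTC-133 siControl library was thus the lowest of the 6, and the FTC-133 siCRABP2 library came close to the BHT-101 libraries. The median FPKM of the 32 genes was 23.6 with siCRABP2 and 9.83 with siControl in FTC-133, 12.9 and 15.2 in BHT-101, and 21.2 with the CRABP2 vector and 25.5 with the empty vector in 8505C.

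**Figure D1:**
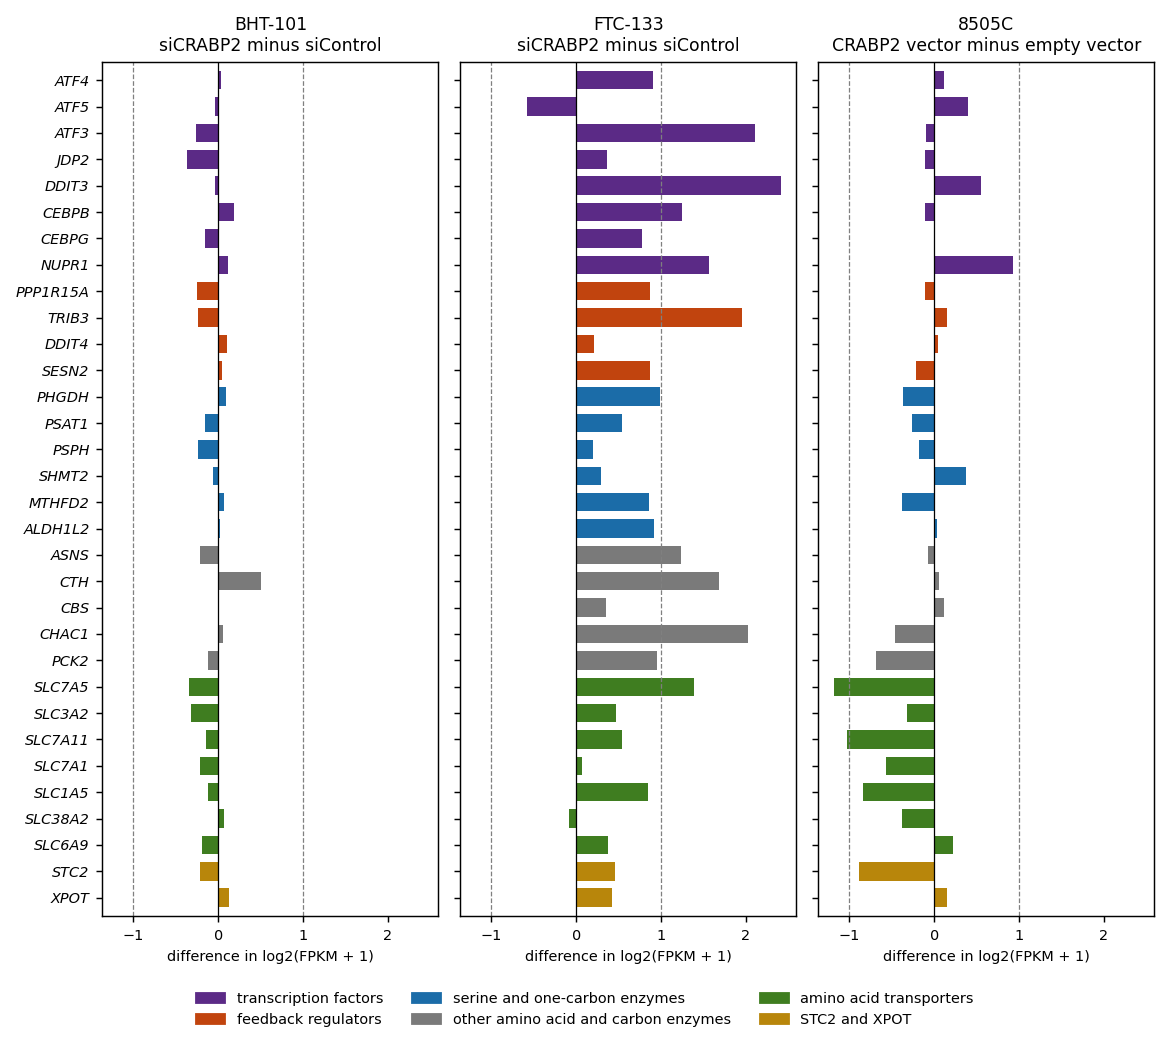
Difference in log2(FPKM + 1) of each of the 32 genes, siCRABP2 minus siControl in BHT-101 and FTC-133 and CRABP2 vector minus empty vector in 8505C, 1 library per side, with bars coloured by role and dashed lines at 2-fold. In BHT-101 the longest bar is CTH at 0.50, 30 of the 32 in FTC-133 point right, and the transporters in 8505C point left except SLC6A9.

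**Figure D2:**
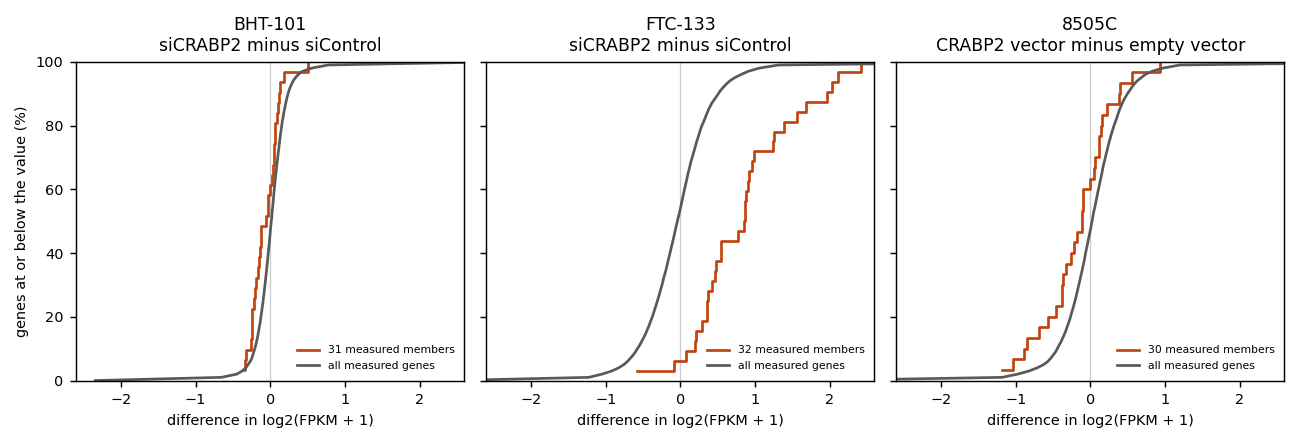
Cumulative percentage of genes at or below each difference in log2(FPKM + 1) in each line, for the measured members (stepped line) and for all measured genes (smooth line). The members' line lies right of the line for all genes in FTC-133 (medians 0.86 and -0.04). In BHT-101 (-0.06 and 0.01) and 8505C (-0.11 and 0.02) the medians are closer. In both of these lines the members' line lies left of the line for all genes over much of its lower part.

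Among the transcription factors, ATF4 itself (chromosome 22, 39519695 to 39522685, plus strand, positions from GENCODE release 29 on GRCh38) was an abundant mRNA in all 3 lines. ATF4 stood at 167.5 FPKM with siCRABP2 and 89.2 FPKM with siControl in FTC-133, a ratio of 1.88 (counting interval 1.82 to 1.94). In BHT-101 it was 298.3 and 290.3 FPKM, and in 8505C it was 330.2 FPKM with the CRABP2 vector and 305 FPKM with the empty vector. The siControl library of FTC-133 was the low one of the 6, and the siCRABP2 library of that line stayed below the other 4.

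DDIT3, which encodes CHOP, a factor that promotes death under lasting stress, had the largest difference of the set. DDIT3 lies on chromosome 12, 57516588 to 57521737, minus strand. It was 50.9 FPKM (1807 reads) with siCRABP2 and 8.69 FPKM (282 reads) with siControl in FTC-133, a difference of 2.42 and a ratio of 5.85 (5.16 to 6.66), which ranked 16 of 12832 measured genes. The other 4 libraries lay between 22.3 and 33.4 FPKM, with 22.3 FPKM for siCRABP2 and 22.9 FPKM for siControl in BHT-101 and 33.4 FPKM for the CRABP2 vector and 22.4 FPKM for the empty vector in 8505C. FTC-133 siControl was thus the lowest library and FTC-133 siCRABP2 the highest. Exons of MARS on the opposite strand share 27.2% of DDIT3's exon bases, and the strand setting of the counting is not stated. MARS was 34.5 FPKM with siCRABP2 and 23.7 FPKM with siControl in FTC-133.

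ATF3 (chromosome 1, 212565334 to 212620777, plus strand), an early stress factor that ATF4 induces, showed the same order. FTC-133 had 9.05 FPKM (994 reads) with siCRABP2 and 1.33 FPKM with siControl, a difference of 2.11, a ratio of 6.82 (5.69 to 8.24) and rank 25. It was 4.30 and 5.34 FPKM in BHT-101, and 3.16 FPKM with the CRABP2 vector and 3.46 FPKM with the empty vector in 8505C. Here too the FTC-133 libraries were the lowest and the highest of the 6.

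CEBPB, which encodes a partner of ATF4 at composite elements (chromosome 20, 50190734 to 50192689, plus strand), was 81.7 FPKM with siCRABP2 and 33.8 FPKM with siControl in FTC-133. That is a difference of 1.25 and a ratio of 2.42 (2.28 to 2.56). It was 79.1 and 69.4 FPKM in BHT-101 and 69.0 FPKM with the CRABP2 vector against 74.2 FPKM with the empty vector in 8505C. The FTC-133 siControl library stood alone at less than 34 FPKM. CEBPG, another C/EBP partner of ATF4, was 17.6 and 9.87 FPKM in FTC-133 (0.77) and 10.8 and 12.1 FPKM in BHT-101. In 8505C CEBPG was 38.1 FPKM in both libraries, the closest match of any member in that line.

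NUPR1 (chromosome 16, 28532708 to 28539174, minus strand), a small chromatin-associated stress protein, had the largest positive difference of all members in 8505C and a larger one in FTC-133. In FTC-133 it was 27.9 FPKM with siCRABP2 and 8.75 FPKM with siControl (1.57, ratio 3.19, 2.99 to 3.4). In 8505C it was 5.09 FPKM with the CRABP2 vector and 2.20 FPKM with the empty vector, a difference of 0.93 and a ratio of 2.32 (2.01 to 2.67). It passed 2-fold there only with a pseudocount of 0.1, at 1.18. BHT-101 had 11.7 FPKM with siCRABP2 and 10.8 FPKM with siControl.

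ATF5, a relative of ATF4 with its own translational control, went against the group. It was 6.19 FPKM with siCRABP2 and 9.78 FPKM with siControl in FTC-133 (-0.58), 8.37 and 8.60 FPKM in BHT-101, and 7.03 FPKM with the CRABP2 vector and 5.07 FPKM with the empty vector in 8505C (0.40). The opposite-strand gene NUP62 shares 21.2% of ATF5's exon bases, and NUP62 was 14.0 FPKM with siCRABP2 and 19.7 FPKM with siControl in FTC-133. JDP2, a repressor of the AP-1 family, ranged from 0.87 to 4.73 FPKM over the 6 libraries and differed by 0.36 in FTC-133. For CEBPB, DDIT4, MTHFD2 and SLC1A5 an opposite-strand gene shares between 11.8% and 41.2% of exon bases, and these partners stayed at or under 0.597 FPKM.

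Of the 4 feedback and brake genes, all 4 were higher in FTC-133 with siCRABP2, against 46.1% of all measured genes, with a median of 0.87. TRIB3 (chromosome 20, 362835 to 397559, plus strand) encodes a pseudokinase that restrains ATF4 and AKT. It was 29.6 FPKM (2442 reads) with siCRABP2 and 6.87 FPKM (517 reads) with siControl in FTC-133, a difference of 1.96, a ratio of 4.31 (3.92 to 4.75) and rank 39. It was 53.6 and 63.5 FPKM in BHT-101, and 130.1 FPKM with the CRABP2 vector and 116.7 FPKM with the empty vector in 8505C. Both FTC-133 libraries therefore lay below all 4 others, unlike those of DDIT3 and ATF3.

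PPP1R15A, which encodes GADD34 and directs the removal of phosphate from eIF2, was 37.2 FPKM with siCRABP2 and 19.9 FPKM with siControl in FTC-133 (0.87). It was 31.2 and 37.3 FPKM in BHT-101 (-0.25), and 58.7 FPKM with the CRABP2 vector against 63.5 FPKM with the empty vector in 8505C. PPP1R15A was therefore higher with siCRABP2 in FTC-133 and lower in BHT-101. SESN2, a leucine sensor that restrains mTORC1, was 8.34 and 4.10 FPKM in FTC-133 (0.87), 10.2 and 9.90 FPKM in BHT-101, and 19.3 FPKM with the vector and 22.5 FPKM without insert in 8505C. DDIT4, which encodes the mTORC1 inhibitor REDD1, was high in FTC-133 in both libraries, at 129 FPKM with siCRABP2 and 111.3 FPKM with siControl (0.21). It was 48.0 and 44.6 FPKM in BHT-101 and 16.7 FPKM with the CRABP2 vector against 16.1 FPKM with the empty vector in 8505C. DDIT4 thus differed far more between lines than with CRABP2.

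**Figure D3:**
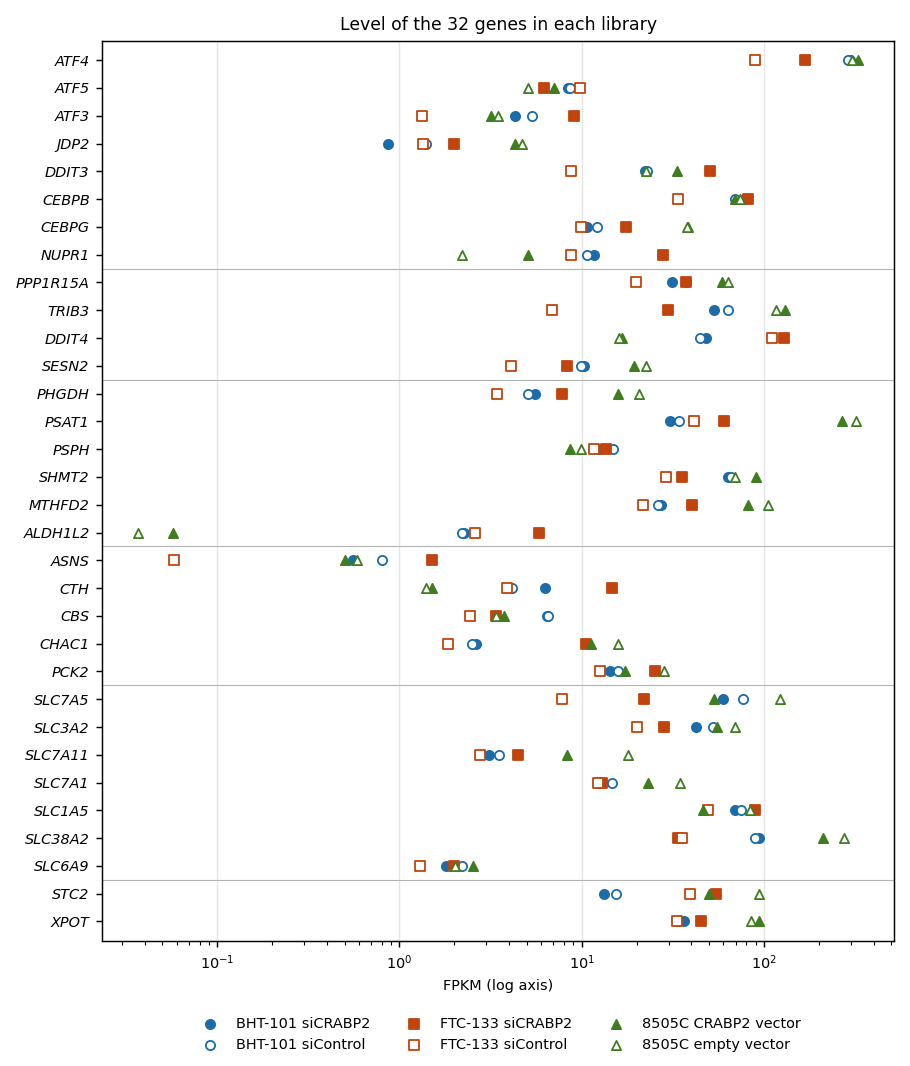
FPKM of the 32 genes on a log axis in each of the 6 libraries, with 1 point per library, filled for siCRABP2 or the CRABP2 vector and open for siControl or the empty vector, and grey lines between roles. For DDIT3, ATF3 and CEBPB the FTC-133 siControl square lies left of every other point and the FTC-133 siCRABP2 square lies right of every other point, and for PSAT1 both 8505C triangles lie far right.

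The serine and mitochondrial one-carbon enzymes were all above 0 in FTC-133, 6 of 6 against 46.1% of all measured genes. Their median was 0.70, and 0 passed 2-fold, where 2.36% of all genes were higher and 2.35% lower. PHGDH, the entry enzyme of serine synthesis, was 7.79 FPKM with siCRABP2 and 3.42 FPKM with siControl in FTC-133, a difference of 0.99 just under the limit, although the ratio of FPKM was 2.28 (2.10 to 2.48). It was 5.51 and 5.09 FPKM in BHT-101 and 15.8 FPKM with the CRABP2 vector against 20.6 FPKM with the empty vector in 8505C (-0.36). The library with less CRABP2 was the higher one for PHGDH in all 3 lines, although in BHT-101 the counting interval of the ratio (0.999 to 1.17) held 1.

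PSAT1, the aminotransferase of the next step, was 60.5 and 41.3 FPKM in FTC-133 with siCRABP2 and siControl (0.54) and 30.6 and 34.2 FPKM in BHT-101. In 8505C PSAT1 was 268.5 FPKM with the CRABP2 vector and 321.8 FPKM with the empty vector (-0.26), far above the other lines. PSPH, the phosphatase that releases serine, moved little, with 13.5 and 11.7 FPKM in FTC-133 (0.20), 12.4 and 14.9 FPKM in BHT-101, and 8.66 FPKM with the vector and 9.95 FPKM with the empty vector in 8505C. Its near-identical copy PSPHP1 was 79.6 FPKM with the CRABP2 vector and 59.2 FPKM with the empty vector in 8505C and listed at 0 in the other lines, so reads of PSPH are uncertain in 8505C.

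SHMT2, which turns serine into glycine in mitochondria, was 35.8 FPKM with siCRABP2 and 29.1 FPKM with siControl in FTC-133 (0.29) and 63.4 and 66.3 FPKM in BHT-101. It was 90.7 FPKM with the CRABP2 vector and 69.4 FPKM with the empty vector in 8505C (0.38), the one member of this role measured in 8505C that was above 0. MTHFD2, the next enzyme of the mitochondrial folate path, was 40.3 and 21.7 FPKM in FTC-133 (0.86), 27.4 and 26.1 FPKM in BHT-101, and 81.3 FPKM with the vector against 106 FPKM with the empty vector in 8505C (-0.38). ALDH1L2, which oxidises mitochondrial formyl-folate, was 5.83 and 2.61 FPKM in FTC-133 (0.92) and 2.25 and 2.20 FPKM in BHT-101. In 8505C ALDH1L2 rested on 12 reads with the CRABP2 vector and 8 reads with the empty vector and was not measured.

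The other enzymes had the highest median of any role in FTC-133, 1.24, with 5 of 5 above 0, against 46.1% of all measured genes. Of the 5, 3 were at least 2-fold higher, where 2.36% of all genes were. ASNS is 1 of these 3 and its value is the median, although it counted as measured only through its siCRABP2 library. ASNS, asparagine synthetase (chromosome 7, 97852118 to 97872542, minus strand), was low throughout. It was 1.5 FPKM (200 reads) with siCRABP2 and 0.06 FPKM (7 reads) with siControl in FTC-133, a difference of 1.24 and a ratio of FPKM of 26.1 (counting interval 12.4 to 65.7). The other libraries lay at 0.56 FPKM with siCRABP2 and 0.80 FPKM with siControl in BHT-101 and at 0.50 FPKM with the CRABP2 vector and 0.58 FPKM with the empty vector in 8505C. A same-strand transcript, AC079781.5, shares 44.6% of the ASNS exon bases and was itself at 0.0563 to 0.283 FPKM, so the level of ASNS is uncertain.

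CHAC1 (chromosome 15, 40952962 to 40956519, plus strand), which breaks down glutathione, was 10.6 FPKM (592 reads) with siCRABP2 and 1.85 FPKM (94 reads) with siControl in FTC-133. The difference was 2.03, the ratio 5.75 (4.62 to 7.23) and the rank 32. It was 2.64 and 2.51 FPKM in BHT-101 and 11.3 FPKM with the CRABP2 vector against 15.9 FPKM with the empty vector in 8505C (-0.46). With siCRABP2, FTC-133 reached nearly the level of 8505C, while BHT-101 stayed low in both libraries.

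CTH, cystathionine gamma-lyase, which makes cysteine by transsulfuration (chromosome 1, 70411218 to 70439851, plus strand), was the member with the largest difference in BHT-101. It was 14.7 FPKM with siCRABP2 and 3.90 FPKM with siControl in FTC-133 (1.68, ratio 3.77, 3.27 to 4.37) and 6.29 and 4.15 FPKM in BHT-101 (0.50, ratio 1.52, 1.29 to 1.78). In 8505C it was 1.5 FPKM with the CRABP2 vector and 1.4 FPKM with the empty vector. CTH was thus higher with siCRABP2 in both knockdown lines by more than counting error. CBS, the step before it, was 3.39 and 2.43 FPKM in FTC-133 (0.35), 6.47 and 6.5 FPKM in BHT-101 and 3.76 FPKM with the vector and 3.39 FPKM with the empty vector in 8505C. Its annotated copy CBSL stayed at or under 0.0328 FPKM. PCK2, the mitochondrial enzyme that makes phosphoenolpyruvate, was 25.2 FPKM with siCRABP2 and 12.5 FPKM with siControl in FTC-133 (0.96), 14.4 and 15.8 FPKM in BHT-101, and 17.3 FPKM with the vector against 28.4 FPKM with the empty vector in 8505C (-0.68).

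The amino acid transporters differed in sign between FTC-133 and BHT-101 with siCRABP2, and in 8505C the contrast raises CRABP2 where siCRABP2 lowers it. In FTC-133 6 of 7 were above 0 with a median of 0.47, in BHT-101 1 of 7 was with a median of -0.19, and in 8505C 1 of 7 was with a median of -0.57. Of all measured genes, 46.1% were above 0 in FTC-133, 53.3% in BHT-101 and 52.8% in 8505C. The medians of FTC-133 and 8505C thus lay on the side of higher levels with less CRABP2, and that of BHT-101 did not. SLC7A5 (chromosome 16, 87830023 to 87869488, minus strand) is LAT1, the importer of leucine and other large neutral amino acids. It was 22.0 FPKM (2852 reads) with siCRABP2 and 7.76 FPKM (918 reads) with siControl in FTC-133, a difference of 1.39 and a ratio of 2.84 (2.63 to 3.06). It was 59.9 and 76.3 FPKM in BHT-101 (-0.34), and 53.4 FPKM with the CRABP2 vector against 122.9 FPKM with the empty vector in 8505C, a difference of -1.19 and a ratio of 0.435 (0.421 to 0.449). SLC7A5 was the one member past 2-fold in both FTC-133 and 8505C, upward with siCRABP2 and downward with the CRABP2 vector. SLC3A2, the heavy chain that LAT1 and xCT share, was 28.3 and 20.1 FPKM in FTC-133 (0.47), 42.2 and 52.9 FPKM in BHT-101 (-0.32), and 55.2 FPKM with the vector and 69.3 FPKM with the empty vector in 8505C (-0.32).

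SLC7A11 (chromosome 4, 138164097 to 138242349, minus strand) is xCT, the importer of cystine. It was 8.29 FPKM (1766 reads) with the CRABP2 vector and 18.0 FPKM (3969 reads) with the empty vector in 8505C, a difference of -1.03 and a ratio of 0.46 (0.435 to 0.487). In FTC-133 it was 4.49 FPKM with siCRABP2 and 2.76 FPKM with siControl (0.54), and in BHT-101 3.10 and 3.53 FPKM. The empty vector library of 8505C was the high one of the 6. Once the trend on length and GC content was taken out, SLC7A11 no longer passed 2-fold in 8505C.

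SLC1A5, the glutamine importer ASCT2, was 89.7 FPKM with siCRABP2 and 49.3 FPKM with siControl in FTC-133 (0.85). It was 69.0 and 75.0 FPKM in BHT-101, and 46.6 FPKM with the CRABP2 vector against 84.3 FPKM with the empty vector in 8505C (-0.84). In both FTC-133 and 8505C the library with less CRABP2 was thus the higher one for SLC1A5, by nearly equal size. In BHT-101 the library with less CRABP2 was the lower one. SLC7A1, the importer of arginine and lysine, was 13.0 and 12.3 FPKM in FTC-133 (0.07), 12.6 and 14.7 FPKM in BHT-101, and 23.0 FPKM with the vector against 34.6 FPKM with the empty vector in 8505C (-0.57). SLC38A2, the small neutral amino acid importer SNAT2, was 33.7 and 35.6 FPKM in FTC-133 (-0.08), 94.0 and 89.7 FPKM in BHT-101, and 210.4 FPKM with the vector against 273.6 FPKM with the empty vector in 8505C (-0.38). The glycine transporter SLC6A9 ranged from 1.30 to 2.52 FPKM over all libraries.

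STC2, a secreted glycoprotein induced under stress, was 54.5 FPKM with siCRABP2 and 39.4 FPKM with siControl in FTC-133 (0.46) and 13.2 and 15.5 FPKM in BHT-101. It was 50.1 FPKM with the CRABP2 vector and 93.6 FPKM with the empty vector in 8505C (-0.89). XPOT, the nuclear exporter of tRNA, was 45.0 and 33.4 FPKM in FTC-133 (0.42), 36.5 and 33.4 FPKM in BHT-101, and 94.3 FPKM with the vector and 85.0 FPKM with the empty vector in 8505C. XPOT was the one of the pair that was above 0 in all 3 lines, so it was higher with less CRABP2 in the knockdown lines and with more CRABP2 in 8505C.

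**Figure D4:**
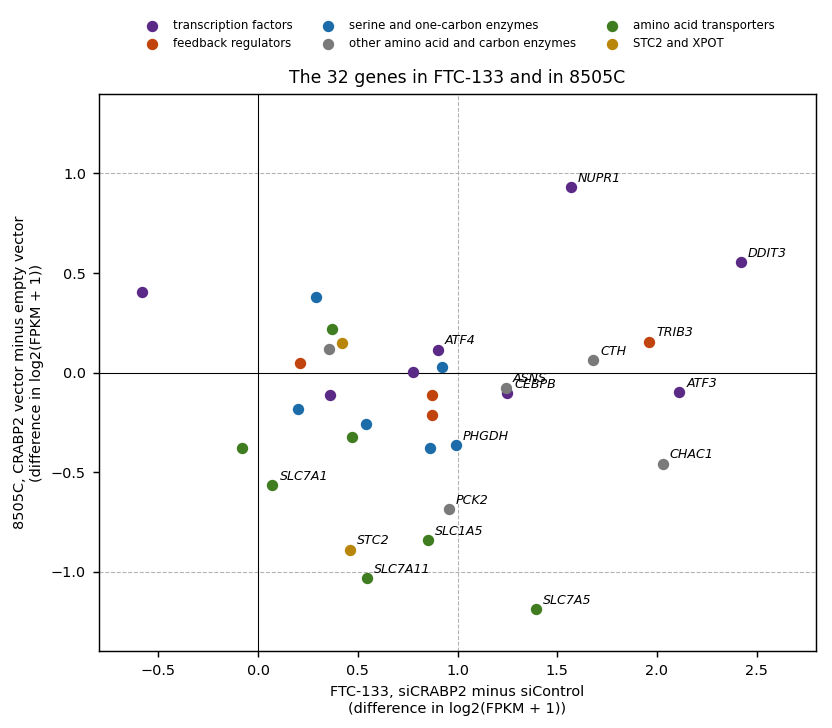
Each of the 32 genes by its difference in FTC-133 (siCRABP2 minus siControl, horizontal) and in 8505C (CRABP2 vector minus empty vector, vertical), both in log2(FPKM + 1), 1 library per side, coloured by role, with dashed lines at 2-fold. SLC7A5 sits at 1.39 and -1.19, and DDIT3, ATF3, TRIB3 and CHAC1 lie far right between -0.46 and 0.55 on the vertical axis.

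The only replicated contrast of siCRABP2 with siControl combined BHT-101 and FTC-133. The fit used limma on log2(FPKM + 1) with the line as a block, over the 4 libraries and 12953 genes, with 1 residual degree of freedom. Of 31 members tested (ASNS was below the level filter), 0 passed at a Benjamini-Hochberg adjusted p of 0.05, where 0.0% of all genes did. At an unadjusted p under 0.05 there were 3 members, and 314 higher and 225 lower genes in all. CTH had a log2 difference of 1.09 (SE 0.29, limma adjusted p = 0.870), higher in both lines. CEBPB had 0.72 (SE 0.26) and NUPR1 0.84 (SE 0.33), both higher in both lines and with the same adjusted p. DDIT3, with opposite signs in the lines, had 1.19 (SE 0.52, limma adjusted p = 0.870).

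All 6 libraries were then set as a lower CRABP2 arm (siCRABP2 and empty vector) against a higher arm (siControl and CRABP2 vector). This fit reuses the siRNA libraries, so it is no separate evidence. Of 31 members 0 passed, where 0.0% of 11628 genes did, and at an unadjusted limma p under 0.05 there were 4 members, and 193 higher and 179 lower genes in all. The 4 were PHGDH at 0.48 (SE 0.19), CHAC1 at 0.85 (SE 0.35), SLC1A5 at 0.52 (SE 0.22) and MTHFD2 at 0.44 (SE 0.18), each with a limma adjusted p = 0.9995. PHGDH, CHAC1 and MTHFD2 were higher in the lower CRABP2 library of all 3 lines, although in BHT-101 the counting interval of each ratio held 1 (0.819 to 1.35 for CHAC1 and 0.999 to 1.1 for MTHFD2). With so few degrees of freedom a p that misses the threshold does not show that the members did not differ.

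Levels differed between lines for many members. In a limma fit of the 3 lines with 2 libraries each, a treated and a control library in place of replicates, 8505C differed from BHT-101 in 19 of 31 members, 13 higher and 6 lower, where 62.8% of 11628 genes were called. FTC-133 differed from BHT-101 in 9 of 31, 2 higher and 7 lower, against 44.3% of genes, and 8505C differed from FTC-133 in 20 of 31, 16 higher and 4 lower, against 59.8%. These shares were near or below those of all genes. Of all genes, 3309 were higher and 1846 lower in FTC-133 than in BHT-101, a split that was 2507 and 2317 after quantile normalization, while the members' count was 2 and 7 in both. The 9 members called for FTC-133 against BHT-101 were 4 without the BHT-101 siControl library, 14 without FTC-133 siCRABP2 and 17 without FTC-133 siControl, and the 19 for 8505C against BHT-101 were 12 without either BHT-101 library.

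The 8505C line stood highest for 16 of the 32 genes, with both its libraries above both of each other line. FTC-133 did so for 2 genes, DDIT4 and ALDH1L2, and BHT-101 for 1, CBS. The same was not counted over all genes, so 16 of 32 cannot be read as a trait of this set. In the line fit, 62.8% of all genes were called for 8505C against BHT-101 and 59.8% for 8505C against FTC-133. PSAT1 averaged 295 FPKM in 8505C, against 32.4 FPKM in BHT-101, a log2 difference of 3.15 (SE 0.22, limma adjusted p = 5.8e-05, n = 2 libraries per line). TRIB3 averaged 123 FPKM in 8505C and 18.3 FPKM in FTC-133, a log2 difference of 3.0 (SE 0.54, limma adjusted p = 0.00293). SLC38A2 averaged 242 and 34.7 FPKM, a difference of 2.76 (SE 0.17, limma adjusted p = 4.5e-05).

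DDIT4 ran the other way, with 16.4 FPKM in 8505C and 120.2 FPKM in FTC-133, a log2 difference of -2.80 (SE 0.15, limma adjusted p = 2.7e-05). ALDH1L2 averaged 0.0471 FPKM in 8505C and 4.22 FPKM in FTC-133 (-2.25, SE 0.28, limma adjusted p = 0.000608). SLC7A5 averaged 14.9 FPKM in FTC-133 and 68.1 FPKM in BHT-101 (-2.27, SE 0.51, limma adjusted p = 0.0115), and ATF4 averaged 128.4 and 294.3 FPKM (-1.26, SE 0.28, limma adjusted p = 0.0112). Of both knockdown lines, FTC-133 thus had the lower mean of ATF4 mRNA. For DDIT3, ATF3, CEBPB, ASNS and SLC1A5 the libraries of the highest line overlapped those of each other line, and their order of lines was not resolved.

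Genes around the pathway were read from 6 further lists. The eIF2 kinases, the exchange factor eIF2B and related genes had 12 of 16 above 0 in FTC-133, against 46.1% of all measured genes. Their median was 0.20, and 0 passed 2-fold, where 2.36% of all genes were higher and 2.35% lower. OMA1, a mitochondrial protease that relays stress to eIF2, was 9.54 FPKM with siCRABP2 and 5.83 FPKM with siControl (0.63). EIF2AK2, the kinase PKR, was 13.4 and 8.46 FPKM (0.61), EIF2B2, a subunit of eIF2B, was 14.0 and 8.77 FPKM (0.62), and DELE1, the partner of OMA1, was 8.45 and 11.5 FPKM (-0.41).

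Cytosolic aminoacyl-tRNA synthetases, which load amino acids onto tRNA, had 16 of 20 above 0 in FTC-133, against 46.1% of all measured genes. Their median was 0.22, and 1 of 20 was at least 2-fold higher, where 2.36% of all genes were. The glycine enzyme GARS1 was the one past 2-fold, at 105.8 FPKM with siCRABP2 and 48.6 FPKM with siControl (1.11). AARS1 differed by 0.93, CARS1 by 0.83 and YARS1 by 0.63. The list had medians of 0.06 in BHT-101 and 0.04 in 8505C.

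A list of 25 other ATF4 targets had 24 of 24 measured genes above 0 in FTC-133, against 46.1% of all measured genes. Of the 24, 5 were at least 2-fold higher, where 2.36% of all genes were, and the median was 0.55. Of these 5, FGF21 (1.9 FPKM with siCRABP2, listed at 0 with siControl) and ADM2 (1.96 and 0.207 FPKM) counted as measured only through the siCRABP2 library. GDF15, a stress cytokine, was 76.2 FPKM with siCRABP2 and 6.04 FPKM with siControl (3.46). PMAIP1, which encodes the death protein NOXA, differed by 1.29, WIPI1, an autophagy protein, by 1.16, and PYCR1, which completes proline synthesis, by 0.98. The list's median was -0.03 in BHT-101, where GDF15 was 45.9 and 61.7 FPKM (-0.42), and -0.16 in 8505C, where the neutral amino acid transporter SLC1A4 was 2.88 FPKM with the CRABP2 vector and 6.81 FPKM with the empty vector (-1.01).

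Chaperones and XBP1-arm genes of the endoplasmic reticulum had 14 of 18 above 0 in FTC-133, against 46.1% of all measured genes, with a median of 0.17. HERPUD1, of the degradation machinery, was 13.8 FPKM with siCRABP2 and 5.34 FPKM with siControl (1.23), and the chaperone HSPA5 was 512.3 and 285.6 FPKM (0.84). SEC24D, a coat protein of export vesicles, differed by 0.89 and the cochaperone DNAJB9 by 0.74. In 8505C 3 of 18 were above 0 with the CRABP2 vector, against 52.8% of all measured genes, with a median of -0.31. The stress sensor ERN1 (-1.05) and the degradation adaptor SEL1L (-1.0) were at least 2-fold lower there, where 1.86% of all genes were.

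Targets of NRF2, the oxidative stress factor, had 10 of 11 above 0 in FTC-133, against 46.1% of all measured genes, with a median of 0.54. Haem oxygenase HMOX1 was 352.6 FPKM with siCRABP2 and 107 FPKM with siControl (1.71), while the quinone reductase NQO1 differed by 0.63, the thioredoxin reductase TXNRD1 by 0.62 and the malic enzyme ME1 by 0.53. In 8505C 1 of 11 was above 0, against 52.8% of all measured genes, with a median of -0.42. SLC7A11 belongs to this list as well as to the 32 genes, so the lists are not independent, and the part of NRF2 in the values of SLC7A11 was not tested.

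Other one-carbon genes, mostly cytosolic and used in making nucleotides, had 4 of 10 measured above 0 in FTC-133, near the 46.1% of all measured genes, and a median of -0.35. The mitochondrial members MTHFD1L, SFXN1 and MTHFD2L were above 0, at 0.36, 0.10 and 0.02. MTHFD1 was 8.21 FPKM with siCRABP2 and 13.3 FPKM with siControl (-0.64), thymidylate synthase TYMS 15.5 and 23.2 FPKM (-0.55) and SHMT1 8.35 and 11.6 FPKM (-0.43). In BHT-101 the 6 lists had medians from -0.03 to 0.07 and 0 genes past 2-fold, where 0.589% of all genes were higher and 0.539% lower.

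**Figure D5:**
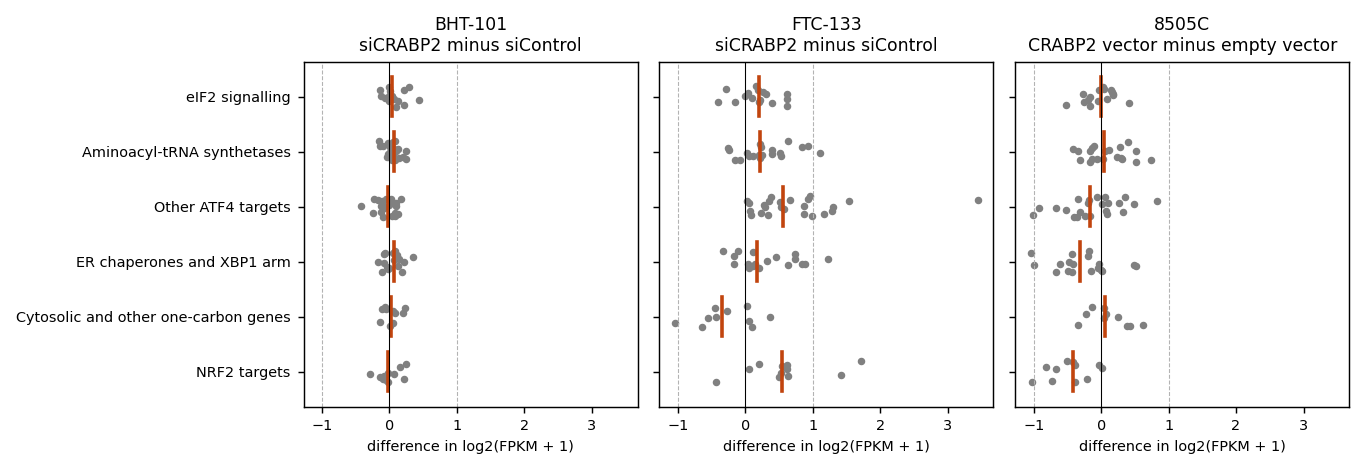
Difference in log2(FPKM + 1) of the measured genes of 6 further lists in each line (points, spread vertically at random within a list), with the list median as a vertical bar and dashed lines at 2-fold, 1 library per side. In FTC-133 the medians run from -0.35 for cytosolic and other one-carbon genes to 0.55 for other ATF4 targets, in BHT-101 they stay between -0.03 and 0.07, and in 8505C NRF2 targets have the lowest, -0.42.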

How the data were processed

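Gene expression was deposited by the authors as FPKM for 58884 gene identifiers in 6 libraries. Per the submitters' processing notes, reads were handled with FastQC, Trimmomatic 0.38 and featureCounts 2.0.0, and the build was GRCh38. Aligner, annotation release and strand setting are not stated. Names, lengths and positions came from GENCODE 29 (58611 identifiers named), which may not be the release the authors used.

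Whole reads were recovered from the steps of FPKM times exon length: 75.4% of the 33848 genes above 0 came out whole with the GENCODE 29 length and 99.6% with a length found by search (tolerance 0.001 reads or 1e-06 of the value). For 15 of the 32 genes the GENCODE 29 length served and for 17 the searched one. A length found by search rests on the whole-number pattern alone, so the read numbers of those genes carry that assumption.

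Values were analysed as log2(FPKM + 1). The fits used limma 3.58.1 in R 4.3.3 with a variance trend. They took genes with FPKM of at least 1 in 2 or more of the 4 siRNA libraries, or in 3 or more of all 6, and adjusted p over all genes tested at 0.05. Other work used Python 3.11.15, pandas 2.3.3 and scipy 1.17.1. The scripts were tested on simulated data. The cell line named in the labels pairs the libraries and is the block of the fits of CRABP2. Counting intervals are exact binomial intervals (Clopper-Pearson) at 95%.

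The members, the further lists and the tests were chosen with earlier results of these data known. All 32 members are named, with all values where FPKM reached 5 in any library or a difference passed 2-fold; of each further list up to 4 genes with FPKM of at least 5 and the largest difference in FTC-133 are named, and CRABP2. GDF15 in BHT-101, FGF21, ADM2, MTHFD1L, SFXN1, MTHFD2L, MARS and NUP62, and SLC1A4, ERN1 and SEL1L in 8505C were added after their values were seen. Some genes of the lists are not reported here. Alternatives were a pseudocount of 0.1, median ratio scaling, quantile normalization, a minimum FPKM of 5, no filter, taking out the trend on length and GC content, a size limit of 1.5-fold, and leaving out libraries.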

Additional observations from a re-analysis of the deposited data

Results flagged for a closer look

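Of the genes past 2-fold in FTC-133, 5 had the opposite sign in BHT-101 under the same siCRABP2 treatment, which is what singled them out. The effect in FTC-133 minus the effect in BHT-101, on the log2(FPKM + 1) scale, was 2.46 for DDIT3, 2.37 for ATF3, 2.20 for TRIB3, 1.74 for SLC7A5 and 1.45 for ASNS. ASNS did not reach an FPKM of 1 in either BHT-101 library (0.558 with siCRABP2 and 0.804 with siControl) and had 7 reads with siControl in FTC-133, so its sign in BHT-101 rests on low values. These differences between lines were not tested, since each line has 1 library per group. In BHT-101 the difference of DDIT3 (-0.04) was within counting error. CRABP2 itself was lowered to 11.4 FPKM in BHT-101 and 0.170 FPKM in FTC-133, and the part of this unequal knockdown in the 5 values was not tested.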

How the results depend on the processing

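Across 36 alternative values for the 9 genes past 2-fold in FTC-133, 0 changed sign and 0 fell under 2-fold. Across 8 for SLC7A5 and SLC7A11 in 8505C, 0 changed sign and 1 fell under 2-fold. With a size limit of 1.5-fold, 18 members were past it in FTC-133 and 6 in 8505C (1 higher, 5 lower), against 9 and 2 at 2-fold, as a lower limit must give. Of all genes 996 were higher and 1237 lower of 12832 in FTC-133 at 1.5-fold, and 832 higher and 672 lower of 11731 in 8505C. With a pseudocount of 0.1, 13 members passed 2-fold upward in FTC-133, where 561 of 12832 genes did, and ASNS differed by 3.35. With the trend on GC content and length removed, 1 member, SLC7A5, passed in 8505C, and the median of the members there was -0.19. That median was -0.20 after quantile normalization and -0.21 with FPKM of at least 5, against -0.11, and the cause was not tested. Quantile normalization and removal of the trend each gave 11 members past 2-fold upward in FTC-133. Of all genes, 312 of 12832 passed upward there after quantile normalization and 338 of 12818 with the trend removed.

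The fits of siCRABP2 and of low CRABP2 gave 0 members at an adjusted p of 0.05 under every alternative run, by limma. Leaving out 1 library at a time, which treats the lone library of a line as varying like the others, moved the members called for FTC-133 against BHT-101 between 4 and 17 around the 9 of the full fit. It gave 4 without the BHT-101 siControl library, 14 without FTC-133 siCRABP2 and 17 without FTC-133 siControl. For 8505C against BHT-101 the range was 12 to 21 around 19, with 12 without either BHT-101 library. With 1 library per condition, differences between cultures of a line cannot be told apart from the treatment.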
